A study of Homo sapiens with 16 samples.

Results

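The autophagy machinery is described here through 36 genes of the 28278 in each count file, taken by listed gene symbol and not by any measured value. They fall into classes by role: 5 genes of the initiation complex, 6 of lipid supply and phosphoinositide effectors, 5 of the class III PI3-kinase complex, 8 of the conjugation system, 5 of the ATG8 family, 5 cargo receptors and 2 subunits of the tethering complexes that join vesicles to lysosomes. All 36 symbols were found in the files. A total of 35 passed the filter on low counts in every comparison. ATG9B, a paralogue of the lipid scramblase ATG9A, did not pass, with between 0 and 8 counts per library and 0 counts in 8 of the 16 libraries.

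RNA was counted in 16 libraries of the established human melanoma lines SKMEL28, grown in RPMI, and A375, grown in DMEM, both with serum. In SKMEL28 the groups were clone 13 and clone 3 of a MITF and TFE3 double knockout (DKO, 3 libraries each), the D2 line labelled MITFKO from which both DKO clones were made (3 libraries), and wild type (1 library, numbered replicate 4). In A375 they were TFE3KO (3 libraries) and wild type (3 libraries), with MITF not edited. TFE3 was edited with CRISPR-Cas9, and the replicates of a group were flasks of 1 line or clone, so p-values cover the spread between cultures and not between independently made clones.

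In autophagy a double membrane is built around cargo and delivered to the lysosome. The ULK kinase complex starts it, the PI3-kinase complex marks the growing membrane with a phosphoinositide that WIPI proteins bind, ATG2 and ATG9 supply lipid, and a ubiquitin-like conjugation system attaches ATG8 proteins (the LC3 and GABARAP proteins) to lipid. Cargo receptors such as p62 bind both cargo and ATG8 proteins. TFE3, TFEB and MITF are related transcription factors, and TFEB and TFE3 are known as activators of many autophagy and lysosome genes when mTORC1 is inactive.

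The edited genes were looked at first, in CPM, counts relative to library size scaled by trimmed-mean (TMM) factors over all 16 libraries. TFE3 stood at 43.6, 48.1 and 49.3 CPM in the libraries of DKO clone 13 and at 8.36, 8.77 and 11.8 CPM in those of clone 3, against 72.4, 74.3 and 79.7 CPM in MITFKO, and the wild-type SKMEL28 library had 45 CPM. In A375 it stood at 11.7, 12.2 and 10.9 CPM in TFE3KO, against 120, 114 and 125 CPM in wild type. The TFE3 transcript was therefore lower in all edited libraries, but clone 13 kept about the wild-type SKMEL28 level. MITF mRNA was not lower in the line labelled MITFKO, which averaged 512 ± 30.8 CPM (SD, n = 3), against 539 CPM in the wild-type library, and it was higher in both DKO clones (894 ± 65.3 CPM in clone 13 and 802 ± 29.8 CPM in clone 3). In A375 MITF had 18.3, 18.6 and 17.1 CPM in TFE3KO, against 38.9, 34.2 and 30.9 CPM in wild type, and fell by 0.94 on the log2 scale (SE 0.0879, edgeR adjusted p = 3.93e-13), where its gene was not edited. Counts over a whole gene also take in transcripts of an edited allele, so the MITFKO label and the TFE3KO label of clone 13 are not checked by these values, and the group names below are the labels. TFEB was scarce, with group means between 1.35 and 2.63 CPM. It was called lower in A375 TFE3KO than in A375 wild type (log2 -0.86, edgeR adjusted p = 0.0268). This call ended without wild-type replicate 3 (0.235), TFE3KO replicate 2 (0.0608) or TFE3KO replicate 3 (0.0857), and with the replicate number as a block (0.0567).

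Library totals ran from 17320855 to 31269126 counts. The summed level of 8 melanocytic markers was 7800 to 9560 CPM in DKO clone 13, 6890 to 7680 CPM in clone 3, 6100 to 6310 CPM in MITFKO and 14800 CPM in wild-type SKMEL28, and 884 to 968 CPM in A375 TFE3KO and 541 to 565 CPM in A375 wild type. In A375, 4 of the 8 stayed at or under 1 CPM, TYR and PMEL among them. The summed level of 4 fibroblast markers was 76.3 to 89.2 CPM in DKO clone 13, 103 to 110 CPM in clone 3, 52.1 to 61.9 CPM in MITFKO, 45.6 CPM in wild-type SKMEL28, 4.4 to 6.83 CPM in A375 TFE3KO and 6.07 to 7.09 CPM in A375 wild type, and it was thus higher in both DKO clones than in MITFKO. Of these 4, between 1 and 3 exceeded 1 CPM in a group. The 3 leukocyte markers summed to 170 to 239 CPM in clone 13, 239 to 274 CPM in clone 3, 238 to 248 CPM in MITFKO, 319 CPM in wild-type SKMEL28, 16.7 to 19.5 CPM in A375 TFE3KO and 31.1 to 35.5 CPM in A375 wild type, with 1 of the 3 above 1 CPM and PTPRC and CD3E at or near 0. The 4 keratinocyte markers summed to 20.9 to 36.6 CPM over the SKMEL28 groups, 64.5 to 80.2 CPM in A375 TFE3KO and 64.7 to 68.3 CPM in A375 wild type, with 1 or 2 of them above 1 CPM and KRT5 and KRT1 at or near 0. The 3 endothelial markers summed to 3.81 CPM at most, with CDH5 at or near 0. The part of these cell types in the results was not tested. In bulk RNA, fewer cells of a kind and less RNA per cell cannot be told apart.

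TFE3, TFEB and MITF bind DNA at the E-box CACGTG, most often with flanking bases as in TCACGTG or GTCACGTG, and MITF also binds TCATGTG. These letters were searched on both strands in the 250 bases before the annotated start in RefSeq (build GRCh38.p14), where 32 of the 36 genes matched a promoter entry. CACGTG was found for 4 of the 32 (12.5%), ATG14, ATG3, NRBF2 and VPS11, against 9.08% of 18292 counted genes with an entry. The longer GTCACGTG, which contains TCACGTG and CACGTG, was found for the same 4 genes (12.5%), against 3.41% of counted genes, and TCACGTG for the same 4, against 4.91%. TCATGTG was found for ATG101 and WIPI2 (6.2%), against 2.83%. The ATF4-type motif TGATGNAA was found for 0 of 32, against 3.43%. The stretches below carry these matches and are shown because ATG14, VPS11 and ATG101 are among the genes that moved most. Each is printed in the direction of transcription, with the match in capitals (CACGTGAC and CACATGA are GTCACGTG and TCATGTG read on the other strand).
ATG14, chr14:55411831-55411901, minus strand: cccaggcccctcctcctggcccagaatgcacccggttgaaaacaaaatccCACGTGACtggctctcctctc
VPS11, chr11:119067734-119067817, plus strand: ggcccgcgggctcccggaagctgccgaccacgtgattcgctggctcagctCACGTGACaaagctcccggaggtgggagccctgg
NRBF2, chr10:63133078-63133139, plus strand: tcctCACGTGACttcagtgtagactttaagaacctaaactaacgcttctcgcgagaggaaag
ATG3, chr3:112561963-112562032, minus strand: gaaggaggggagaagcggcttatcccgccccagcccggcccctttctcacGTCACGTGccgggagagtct
ATG101, chr12:52069728-52069804, plus strand: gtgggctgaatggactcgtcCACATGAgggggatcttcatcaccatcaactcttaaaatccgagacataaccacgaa
The VPS11 stretch holds another CACGTG in lower case. A match is a description of the letters, not evidence of binding, and no match, as for SQSTM1, says only that these letters are not in this window.

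Between genes, levels were compared as CPM per kilobase of exon. SQSTM1, which encodes p62, ranked 1 of 36 in all 6 groups, with 235 CPM per kb in DKO clone 13, 276 in clone 3, 322 in MITFKO, 290 in wild-type SKMEL28, 63.2 in A375 TFE3KO and 113 in A375 wild type. GABARAP, an ATG8 protein, ranked 2 in every group, at 33.2 to 68.1 CPM per kb. TAX1BP1, another cargo receptor, ranked 3 in every SKMEL28 group, at 36.1 to 63.3 CPM per kb, but stood at 14.2 in A375 TFE3KO and 13.3 in A375 wild type, where ATG101 ranked 3. ATG9B was last in every group. ULK2, a kinase related to ULK1, ranked 34 in SKMEL28 and 35 in A375.

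The line labelled MITFKO was set against wild-type SKMEL28 to ask how these genes stand after MITF editing. Of the 35 genes tested, 22 rose and 2 fell (68.6% called), whereas 48.6% of 14605 genes tested were called, 25.2% of them as rises and 23.4% as falls, at an adjusted p under 0.05 (edgeR, quasi-likelihood F-test, Benjamini-Hochberg). The median log2 fold change was 0.43 over the 35 genes and 0.01 over all genes tested. The classes moved unequally: all 5 initiation genes, all 5 ATG8 genes, 4 of 5 lipid supply genes and 4 of 5 cargo receptors rose, as did 3 of 5 PI3-kinase genes and 1 of 2 tethering genes, while 0 of 8 conjugation genes rose and 2 fell. These folds rest on 1 wild-type library, which was assumed to vary like the others. Its file header names a different alignment input from the MITFKO files, so a batch of processing and the genotype cannot be told apart. The 8 melanocytic markers also differed, with a summed level of 6100 to 6310 CPM in MITFKO and 14800 CPM in wild type. They differed unequally: MLANA stood at 3.22 CPM in MITFKO and 739 CPM in wild type, while MITF was not called (log2 -0.07).

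Among the ATG8 genes, GABARAPL1 had 93.2, 97.9 and 104 CPM in the MITFKO libraries, against 37.5 CPM in wild type. It rose 2.62-fold (log2 1.39 ± 0.103 SE, adjusted p = 2.17e-10). MAP1LC3A, which encodes LC3A, was scarce, with 35, 45 and 33 counts in MITFKO and 2 counts in wild type. The ratio of its levels, MITFKO to wild type, was 23, with a 95% counting interval of 6.22 to 192 that covers counting error only (adjusted p = 0.00155). MAP1LC3B, the most studied LC3 gene, had 238, 234 and 231 CPM in MITFKO and 141 CPM in wild type (log2 0.73 ± 0.1 SE, adjusted p = 2.5e-06). GABARAP rose less, with 130, 133 and 133 CPM in MITFKO and 112 CPM in wild type (log2 0.24 ± 0.0775, adjusted p = 0.0128). GABARAPL2 had 56.5, 59.3 and 54 CPM in MITFKO and 47.8 CPM in wild type (log2 0.25 ± 0.1, adjusted p = 0.048). That last call ended without MITFKO replicate 1 (adjusted p = 0.0786) or replicate 2 (0.143), and in DESeq2 (0.0681).

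Among the cargo receptors, NBR1, which binds ubiquitinated cargo as p62 does, had 226, 239 and 230 CPM in the MITFKO libraries, against 103 CPM in wild type (log2 1.17 ± 0.0807 SE, adjusted p = 6.27e-11). CALCOCO2, which encodes the receptor NDP52, had 98.8 ± 6.35 CPM in MITFKO (SD, n = 3, lowest 91.7, highest 104), against 50 CPM in wild type (log2 0.98 ± 0.1, adjusted p = 3.16e-08). In both genes every MITFKO library lay far above the wild-type value. TAX1BP1 rose by 0.53 on the log2 scale and OPTN, the mitophagy receptor optineurin, by 0.41. SQSTM1, the most abundant receptor, was not called (log2 0.15 ± 0.0727, adjusted p = 0.0861), with 2390, 2500 and 2510 CPM in MITFKO and 2220 CPM in wild type.

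In the initiation class ATG101, which stabilises ATG13 within the ULK complex, had 133, 148 and 139 CPM in MITFKO, against 61.2 CPM in wild type (log2 1.20 ± 0.09 SE, adjusted p = 2.53e-10). ULK2, ULK1, ATG13 and the scaffold RB1CC1 rose by 0.97, 0.90, 0.77 and 0.68 on the log2 scale. Of the PI3-kinase genes, ATG14, the subunit that directs the complex to autophagy, had 41.4, 44.7 and 37.7 CPM in MITFKO, against 21 CPM in wild type (log2 0.98 ± 0.142, adjusted p = 5.16e-06). BECN1, the core scaffold, rose by 0.45 and UVRAG, which replaces ATG14 in another form of the complex, by 0.39. The UVRAG call ended without MITFKO replicate 2 (adjusted p = 0.066). The catalytic subunit PIK3C3 (log2 -0.04) and the regulator NRBF2 (-0.18) were not called.

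VPS11, a shared subunit of the tethering complexes, had 46.7, 47.7 and 50.8 CPM in MITFKO, against 24.3 CPM in wild type (log2 1.00 ± 0.131 SE, adjusted p = 1.31e-06), while its partner VPS18 was not called (log2 -0.05). In the lipid class the lipid-transfer genes ATG2A and ATG2B, WIPI2, which recruits ATG16L1, and ATG9A rose by 0.81, 0.43, 0.61 and 0.56 on the log2 scale, and WIPI1, which binds the phosphoinositide on the growing membrane, had the same level in both groups (74.9, 79.3 and 83.3 CPM in MITFKO and 79 CPM in wild type, log2 0.00 ± 0.106). The conjugation genes that fell were ATG10, an E2-like enzyme (log2 -0.55 ± 0.168, adjusted p = 0.00893), and ATG5, which ATG10 joins to ATG12 (-0.45 ± 0.132, adjusted p = 0.00648). The other 6 conjugation genes lay between -0.32 and 0.28 and were not called. Removing the trend with GC content, which correlated with the fold changes over all genes (Spearman rho 0.224 across 13887 genes, which are not independent replicates), ended the calls of ATG5 (adjusted p = 0.0561) and ATG9A (0.125).

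**Figure D1:**
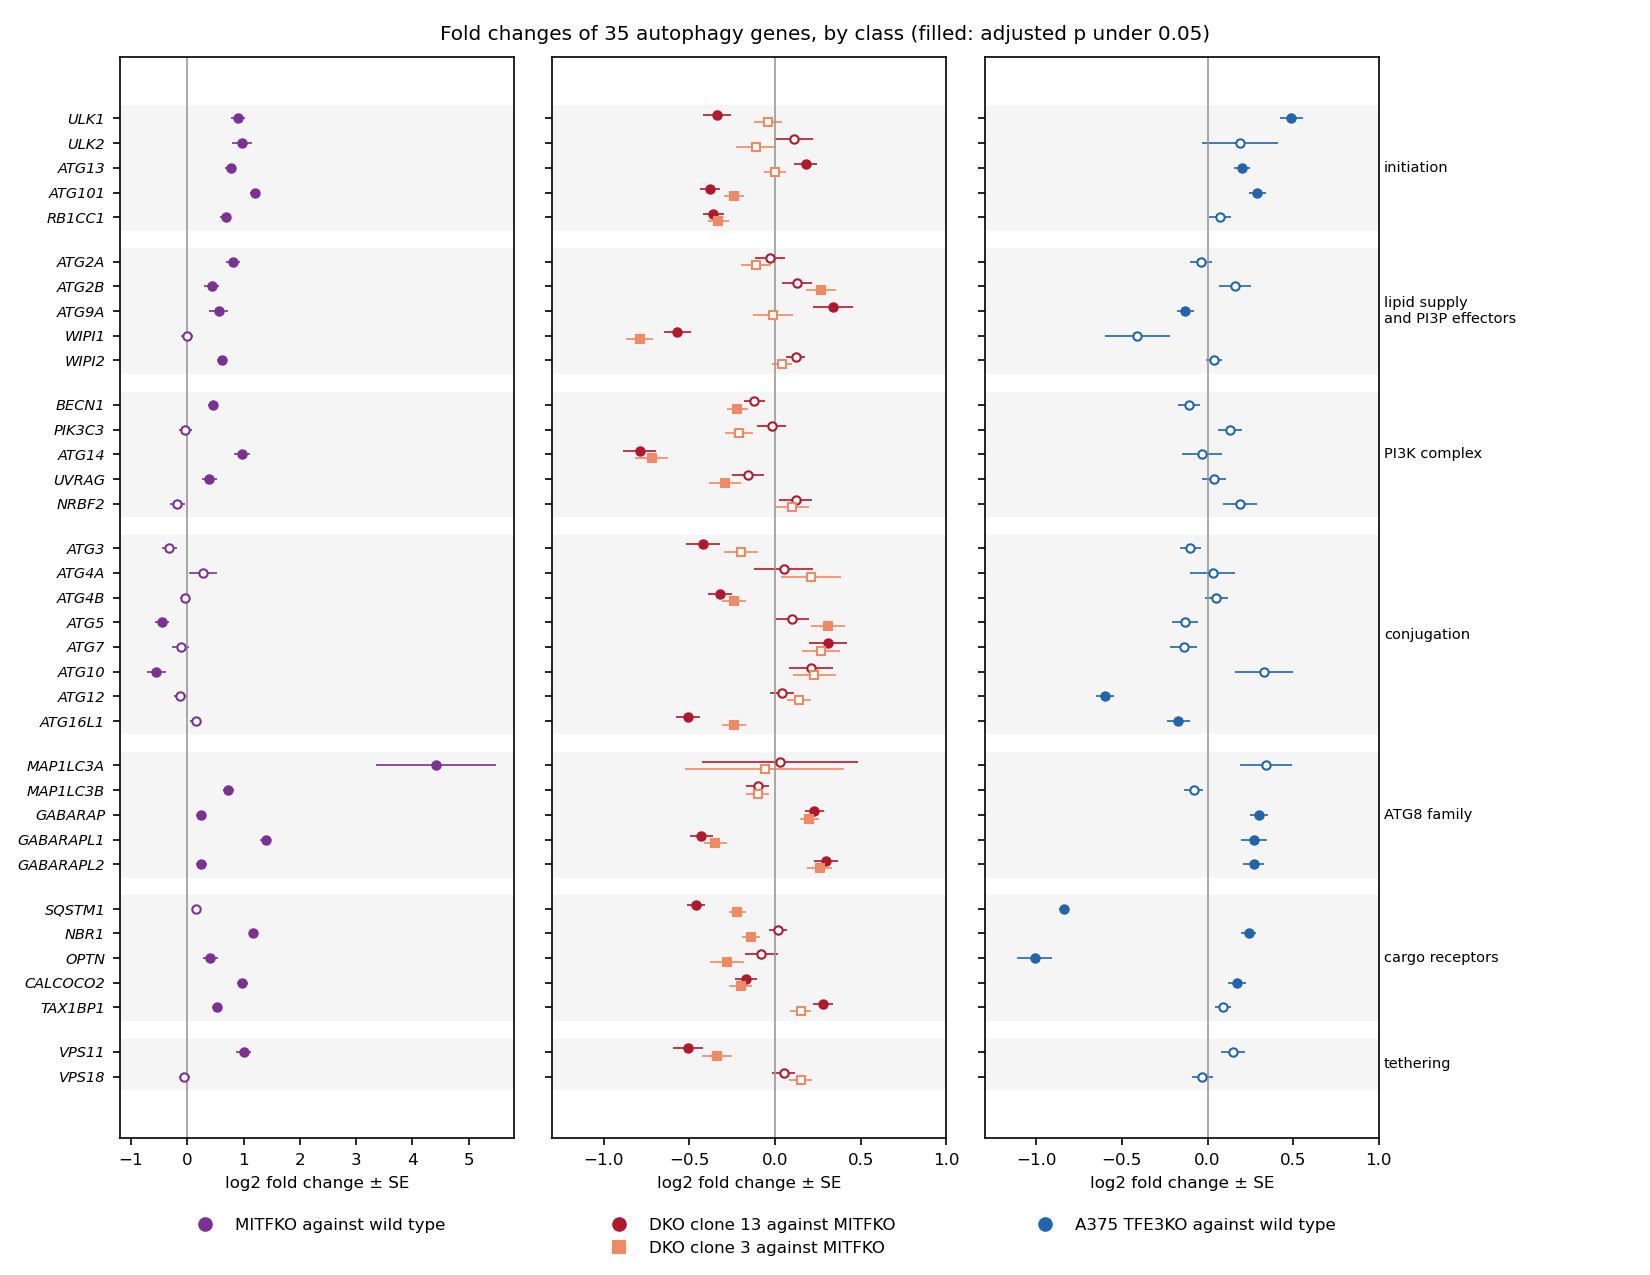
Log2 fold changes with their standard errors for the 35 genes tested, grouped by class, from MITFKO against wild type (left), each DKO clone against MITFKO (middle) and A375 TFE3KO against A375 wild type (right). Filled symbols were called at an adjusted p under 0.05. The left axis is wider than the others, and MAP1LC3A at 4.42 rests on 2 wild-type counts.

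Each DKO clone was set against MITFKO to ask what editing TFE3 added. In clone 13, 6 of 35 genes rose and 12 fell (51.4% called), against 40.7% of all genes tested (20.5% rises and 20.2% falls). In clone 3, 4 rose and 14 fell (51.4% called), against 35.9% of all genes tested (18.2% rises and 17.6% falls). The median log2 fold change of the 35 genes was -0.02 in clone 13 and -0.11 in clone 3, and over all genes it was -0.02 in clone 13 and -0.01 in clone 3. The clones share the MITFKO libraries, so their values are not independent of each other or of the MITFKO rise above. In clone 13 the genes that fell were ULK1, ATG101, RB1CC1, WIPI1, ATG14, ATG3, ATG4B, ATG16L1, GABARAPL1, SQSTM1, CALCOCO2 and VPS11, and those that rose were ATG13, ATG9A, ATG7, GABARAP, GABARAPL2 and TAX1BP1. In clone 3 the genes that fell were ATG101, RB1CC1, WIPI1, BECN1, ATG14, UVRAG, ATG4B, ATG16L1, GABARAPL1, SQSTM1, NBR1, OPTN, CALCOCO2 and VPS11, and those that rose were ATG2B, ATG5, GABARAP and GABARAPL2.

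WIPI1 fell in both clones, to 49.1, 58.8 and 52.3 CPM in clone 13 and 44.1, 46.5 and 46.3 CPM in clone 3, against 74.9, 79.3 and 83.3 CPM in MITFKO. The log2 fold change was -0.57 ± 0.0771 SE in clone 13 (adjusted p = 3.9e-06) and -0.79 ± 0.0782 in clone 3 (adjusted p = 6.7e-08). ATG14, whose promoter match is printed above, had 22.5, 23.1 and 26 CPM in clone 13 and 24.9, 26.2 and 24 CPM in clone 3, against 41.4, 44.7 and 37.7 CPM in MITFKO. It fell by 0.79 in clone 13 (SE 0.0965, adjusted p = 9.74e-07) and by 0.72 in clone 3 (SE 0.0968, adjusted p = 4.93e-06), and all 6 DKO libraries lay below the 3 MITFKO libraries and slightly above the wild-type value of 21 CPM.

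VPS11 had 31.1, 37.2 and 33.4 CPM in clone 13 and 40.2, 35.9 and 38.3 CPM in clone 3, against 46.7, 47.7 and 50.8 CPM in MITFKO. Its log2 fold changes were -0.51 ± 0.0875 SE (adjusted p = 6.4e-05) and -0.34 ± 0.0874 (adjusted p = 0.00387). The kinase scaffold RB1CC1, also known as FIP200, had 93.2, 96.2 and 88.2 CPM in clone 13 and 97.5, 94 and 91.9 CPM in clone 3, against 121, 123 and 112 CPM in MITFKO (log2 -0.36 ± 0.0627 and -0.33 ± 0.0629, adjusted p = 8.57e-05 and 0.000293). ATG101 fell by 0.38 in clone 13 and 0.24 in clone 3. ULK1, the kinase itself, fell in clone 13 alone by the call, with 45.3, 49.8 and 54 CPM there and 58.3, 65.4 and 60 CPM in clone 3, against 62.7, 58.3 and 67.9 CPM in MITFKO. Its log2 fold changes were -0.34 ± 0.0831 (adjusted p = 0.00222) and -0.04 ± 0.0827 (adjusted p = 0.756).

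Among the receptors SQSTM1 had 1810, 1740 and 1830 CPM in clone 13 and 2100, 2080 and 2150 CPM in clone 3, against 2390, 2500 and 2510 CPM in MITFKO. It fell by 0.46 in clone 13 (SE 0.0511, adjusted p = 2.67e-07) and by 0.22 in clone 3 (SE 0.051, adjusted p = 0.00143), and the 3 groups did not overlap. TAX1BP1 moved the other way in clone 13, with 574, 624 and 542 CPM there and 530, 559 and 505 CPM in clone 3, against 501, 475 and 459 CPM in MITFKO. It rose by 0.28 in clone 13 (adjusted p = 0.000725), and the value in clone 3 was 0.15 (adjusted p = 0.052). CALCOCO2 had 93, 82.8 and 87.4 CPM in clone 13 and 85.5, 86 and 85.8 CPM in clone 3, against 91.7 to 104 CPM in MITFKO, and clone 13 overlapped MITFKO. OPTN had 54.2, 75.2 and 55.6 CPM in clone 13, where replicate 2 lay above all MITFKO libraries, and 52.4, 55.4 and 52.9 CPM in clone 3, against 64.1, 65.3 and 66.1 CPM in MITFKO.

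The ATG8 genes did not move together. GABARAPL1 had 70.7, 71.6 and 76.1 CPM in clone 13 and 73.2, 78 and 79.2 CPM in clone 3, against 93.2, 97.9 and 104 CPM in MITFKO (log2 -0.43 ± 0.0668 SE and -0.35 ± 0.0669, adjusted p = 1.96e-05 and 0.00024). GABARAP rose, with 150, 155 and 158 CPM in clone 13 and 150, 152 and 152 CPM in clone 3, against 130, 133 and 133 CPM in MITFKO (log2 0.23 ± 0.0541 and 0.20 ± 0.0542, adjusted p = 0.00162 and 0.0055). GABARAPL2 had 67.8, 69.7 and 71.8 CPM in clone 13 and 67.3, 70.8 and 65.3 CPM in clone 3, against 56.5, 59.3 and 54 CPM in MITFKO (log2 0.30 and 0.26, adjusted p = 0.00137 and 0.00577). In GABARAPL1, GABARAP and GABARAPL2 the DKO and MITFKO libraries did not overlap. The share of all genes without overlap was not counted, here or in the other comparisons. MAP1LC3B was not called, at 208, 248 and 200 CPM in clone 13, 215, 229 and 209 CPM in clone 3, and 238, 234 and 231 CPM in MITFKO. MAP1LC3A was not called either (log2 0.03 ± 0.457 SE in clone 13 and -0.06 ± 0.464 in clone 3), with 0.695 to 2.54 CPM within clone 13.

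In the conjugation class ATG16L1, which places the conjugation enzyme on membranes, had 46.7, 46.9 and 46.7 CPM in clone 13 and 57.3, 57.3 and 55.2 CPM in clone 3, against 63.4, 68.8 and 67.9 CPM in MITFKO (log2 -0.51 ± 0.0707 SE and -0.24 ± 0.0704, adjusted p = 4.66e-06 and 0.0115). ATG4B, a protease that processes ATG8 proteins, fell by 0.32 in clone 13 and 0.24 in clone 3. ATG3, the E2-like enzyme for ATG8 proteins, fell in clone 13 (-0.42 ± 0.0996, adjusted p = 0.00164). ATG7, the E1-like enzyme, rose in clone 13 (0.31 ± 0.111, adjusted p = 0.0311), and ATG5 rose in clone 3 (0.31 ± 0.0978, adjusted p = 0.016). ATG4A, ATG10 and ATG12 were called in neither clone.

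The DKO levels can also be set directly beside wild type. The MITFKO libraries enter the comparisons above with opposite sign, and the genes read here were chosen through them. ATG101, RB1CC1, GABARAPL1, CALCOCO2, VPS11 and ATG14 were the 6 genes called higher in MITFKO and lower in both clones. They were thus picked by the MITFKO libraries and by this same wild-type library, so their place above wild type is no independent support. In all 6 every DKO library stood above the wild-type library, with no test. The share of all genes of which this held was not counted. The lowest DKO values were 104 CPM for ATG101, 88.2 for RB1CC1, 70.7 for GABARAPL1, 82.8 for CALCOCO2, 31.1 for VPS11 and 22.5 for ATG14, against 61.2, 73.9, 37.5, 50, 24.3 and 21 CPM for the same genes in wild type.

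Several of the smaller calls ended when 1 library was left out. In clone 3, leaving out MITFKO replicate 2 ended 8 calls, those of NBR1, OPTN, CALCOCO2, ATG2B, UVRAG, ATG4B, ATG5 and ATG16L1 (adjusted p = 0.0526 to 0.165), and left 2 higher and 8 lower. Without clone 3 replicate 3, NBR1, OPTN, CALCOCO2, UVRAG and ATG4B lost their calls (0.0563 to 0.132), leaving 9 lower. Leaving out clone 3 replicate 1 ended the calls of NBR1, OPTN, CALCOCO2, ATG2B and ATG5 (0.0572 to 0.138). Without MITFKO replicate 3 the calls of NBR1, OPTN, ATG2B and ATG5 ended (0.0616 to 0.132). Without clone 3 replicate 2 NBR1, OPTN and ATG5 lost theirs (0.0503 to 0.116), as did OPTN and CALCOCO2 without MITFKO replicate 1 (0.0588 to 0.0926). Without either MITFKO replicate 3 or clone 3 replicate 1, 2 genes were higher. The clone 3 call of OPTN thus ended whichever of the 6 libraries was left out. Over all genes the calls also fell in these runs, to between 0.778 and 0.858 of the number with all libraries.

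In clone 13 the call of CALCOCO2 ended without MITFKO replicate 1 (adjusted p = 0.174) or 2 (0.135), without clone 13 replicate 2 (0.128) or 3 (0.0999), and in DESeq2 (0.076). ATG13 lost its call without MITFKO replicate 2 (0.126) or 3 (0.062), or clone 13 replicate 1 (0.102) or 3 (0.0542). ATG9A lost it without MITFKO replicate 1 (0.099), 2 (0.09) or 3 (0.0719), and ATG7 without MITFKO replicate 2 (0.0626) or 3 (0.179) or clone 13 replicate 1 (0.0981). Removing the GC trend (Spearman rho 0.171 with the fold changes of 13887 genes) ended the calls of CALCOCO2, ATG13 and ATG9A (0.0782 to 0.0929). Leaving out MITFKO replicate 2 or 3 left 3 of the 6 higher calls. The calls of WIPI1, ATG14, VPS11, RB1CC1, ATG101, SQSTM1, GABARAP, GABARAPL1 and GABARAPL2 in both clones held in every alternative run.

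Clone 13, which kept more TFE3 mRNA, was also set against clone 3. Of the 35 genes, 4 were higher and 3 lower in clone 13 (20% called), against 27.6% of all genes tested. ATG16L1 (log2 -0.28 ± 0.0714 SE, adjusted p = 0.00573) and SQSTM1 (-0.23 ± 0.051, adjusted p = 0.00147) were lower in clone 13 and kept these calls in every alternative. ULK1 was lower (-0.30 ± 0.0836, adjusted p = 0.00978), but not without clone 3 replicate 2 (adjusted p = 0.0531) or clone 13 replicate 1 (0.0618). The higher calls were ATG9A (0.35), with 165, 230 and 170 CPM in clone 13 and 149, 161 and 134 CPM in clone 3, WIPI1 (0.23), ATG13 (0.18) and NBR1 (0.16). The genes called higher numbered 2 without clone 3 replicate 1, of which PIK3C3 was not called with all libraries, 1 without replicate 2 and 0 without replicate 3. ATG9A lost its call without clone 3 replicate 1 (0.0994) or 3 (0.124), and with the GC trend removed (0.106). NBR1 lost its call without clone 3 replicate 2 (0.0766) or 3 (0.0999). WIPI1 lost its call without clone 3 replicate 1 (0.114), 2 (0.0547) or 3 (0.0756) or clone 13 replicate 2 (0.134). With single libraries left out in turn, ATG13 kept its call only without clone 13 replicate 2 (adjusted p = 0.0725 to 0.127 without each of the others).

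**Figure D2:**
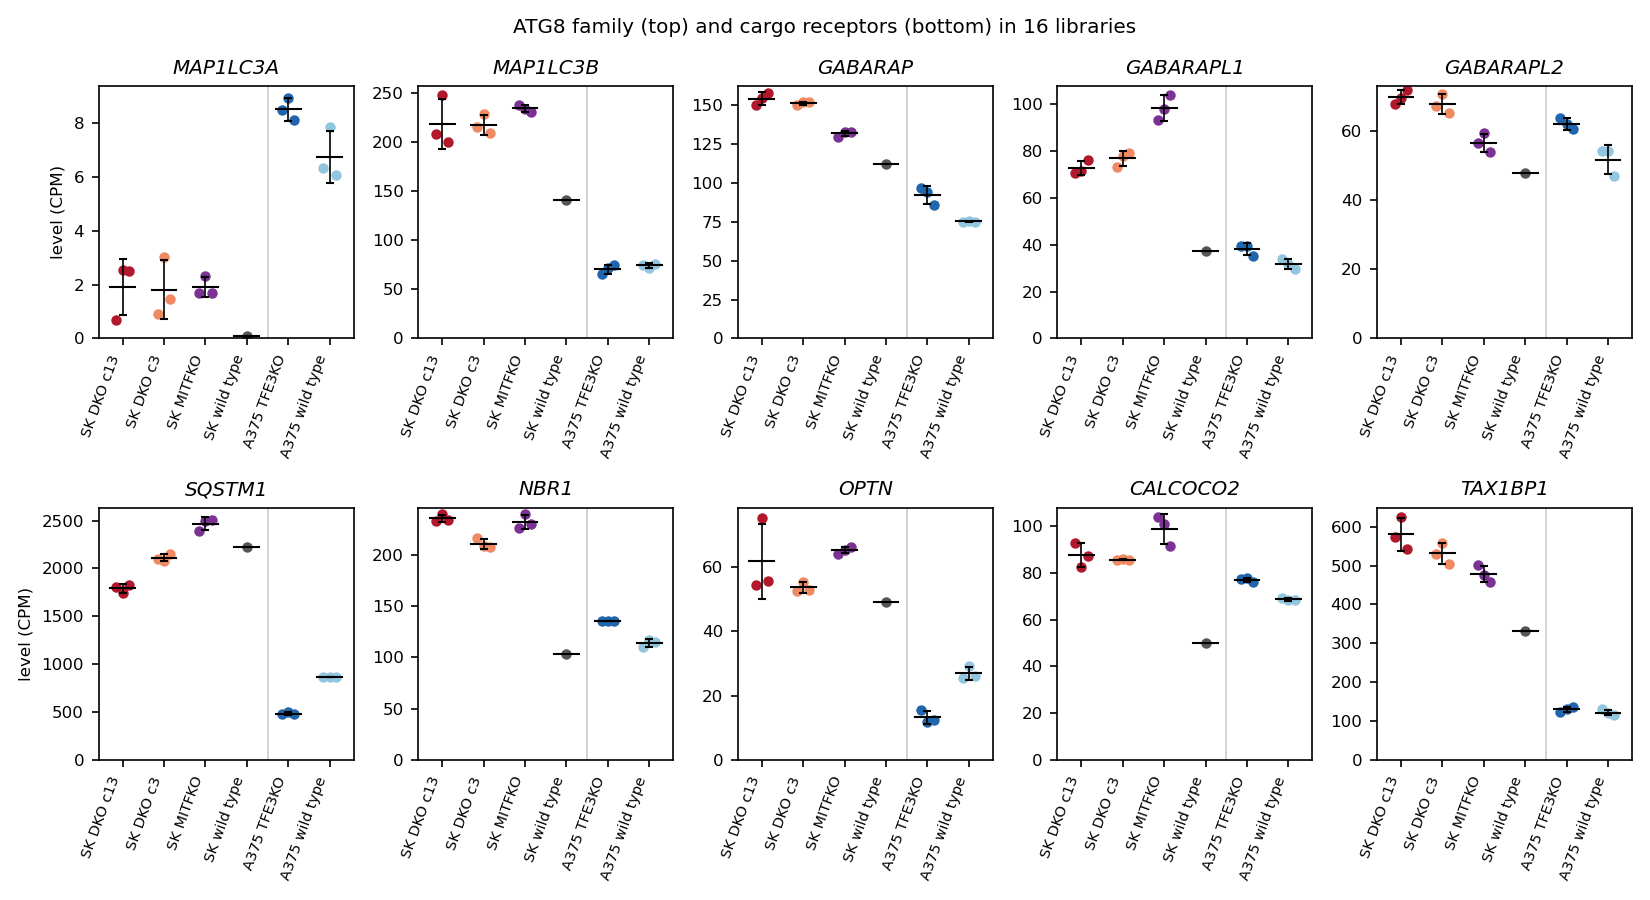
Levels in CPM of the ATG8 genes (top) and the cargo receptors (bottom) in each of the 16 libraries (points), with the group mean and SD (bars; the lone wild-type SKMEL28 library has none). SK stands for SKMEL28, c13 and c3 for the DKO clones, and each panel has its own axis starting at 0. SQSTM1 lies between 475 and 497 CPM in A375 TFE3KO and between 863 and 871 CPM in A375 wild type.

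In A375, where MITF was not edited, TFE3KO was set against wild type. Of the 35 genes, 8 rose and 5 fell (37.1% called), against 43.3% of 14012 genes tested (21.3% rises and 22% falls), with a median log2 fold change of 0.05 over the 35 genes and 0.00 over all genes. Falls were led by cargo receptors. OPTN had 15.5, 11.8 and 12.4 CPM in TFE3KO, against 25.5, 29.1 and 26.1 CPM in wild type (log2 -1.01 ± 0.102 SE, adjusted p = 4.41e-12). SQSTM1 had 479, 497 and 475 CPM in TFE3KO, against 871, 863 and 866 CPM in wild type (log2 -0.84 ± 0.0296, adjusted p = 9.69e-30). The spread within each SQSTM1 group was small beside the gap, and neither receptor's groups overlapped.

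ATG12, the ubiquitin-like protein joined to ATG5, had 65.2, 65.7 and 62.5 CPM in A375 TFE3KO, against 98 ± 2.27 CPM in wild type (SD, n = 3, lowest 96.3). It fell by 0.60 on the log2 scale (SE 0.0512, adjusted p = 1.76e-14). The remaining falls were small, and their calls ended when any of several single libraries was left out. ATG9A (log2 -0.13) lost its call without wild-type replicate 1 (adjusted p = 0.194) or 3 (0.0951), or TFE3KO replicate 1 (0.0648), 2 (0.0501) or 3 (0.118). ATG16L1 (log2 -0.17), at 42.9, 42.1 and 47.7 CPM in TFE3KO and 46.4, 52.7 and 49.5 CPM in wild type, lost it without wild-type replicate 2 (0.207) or 3 (0.0781), or TFE3KO replicate 1 (0.139) or 2 (0.179). In DESeq2 both were above the threshold (0.067 at most). The falls numbered 3 without wild-type replicate 3, without TFE3KO replicate 1 and in DESeq2.

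The rises in A375 TFE3KO held in every alternative and were modest. ULK1 had 56.2, 57.8 and 52.7 CPM in TFE3KO, against 41, 36.6 and 41.1 CPM in wild type (log2 0.49 ± 0.066 SE, adjusted p = 1.3e-08). ATG101 had 118, 113 and 103 CPM in TFE3KO, against 92.7, 87.2 and 93.9 CPM in wild type (log2 0.29 ± 0.0498, adjusted p = 3.58e-06), so both ULK complex members stood above wild type without overlap. ATG13, the third, had 121, 124 and 116 CPM in TFE3KO and 103, 109 and 104 CPM in wild type (log2 0.20). Of the ATG8 genes, GABARAP had 97.1, 94.2 and 85.9 CPM in TFE3KO and 75.2, 75.5 and 75.2 CPM in wild type (log2 0.30 ± 0.0519, adjusted p = 3.33e-06). GABARAPL1 had 39.5, 39.6 and 35 CPM in TFE3KO and 33.8, 31.7 and 29.7 CPM in wild type (log2 0.27), and GABARAPL2 had 63.9, 62 and 60.5 CPM and 54.1, 54.2 and 47 CPM in the same groups (log2 0.27). The groups of these 3 genes did not overlap. The receptors NBR1 (135 CPM in each TFE3KO library, against 110, 117 and 115 CPM in wild type, log2 0.24) and CALCOCO2 (77.3, 77.8 and 76.2 CPM, against 69.5, 68.3 and 68.4 CPM in wild type, log2 0.17) rose while SQSTM1 and OPTN fell.

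WIPI1, among the larger falls in both DKO clones, was scarce in A375, at 4.63, 3.66 and 4.13 CPM in TFE3KO and 5.26, 5.71 and 5.7 CPM in wild type, and was not called (log2 -0.41 ± 0.19 SE, adjusted p = 0.0735). Its difference in change between the lines, tested as described below, was not called either (log2 -0.26, adjusted p = 0.155). ATG14 had 14.4, 12.6 and 12.9 CPM in TFE3KO and 14.8, 14.1 and 12 CPM in wild type (log2 -0.03 ± 0.117, adjusted p = 0.872). No PI3-kinase or tethering gene was called in A375. MAP1LC3B (log2 -0.08) and MAP1LC3A (0.34 ± 0.153, adjusted p = 0.0695) were not called either. PIK3C3, NRBF2, ATG4A and VPS18 were called in no comparison within a line.

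The change with TFE3 editing was compared between the lines in 1 model, as the mean of both DKO clones minus MITFKO, less the change in A375. Of the 35 genes, 5 had a higher and 9 a lower value in SKMEL28 (40% called), against 37.7% of 15093 genes tested (18.5% higher and 19.3% lower). Where SKMEL28 was lower, ATG14 differed most (log2 -0.72 ± 0.137 SE, adjusted p = 0.000128). Next came ULK1 (-0.67 ± 0.103, adjusted p = 6.17e-06), GABARAPL1 (-0.65 ± 0.0925, adjusted p = 2.04e-06), ATG101 (-0.58 ± 0.0758, adjusted p = 4.54e-07) and VPS11 (-0.57 ± 0.106, adjusted p = 7.82e-05). VPS11 had 40.6, 44.8 and 44.4 CPM in A375 TFE3KO and 41.1, 37.6 and 37.8 CPM in A375 wild type, where it was not called. Of the initiation genes the difference was called for ULK1, ATG101 and RB1CC1, and not for ATG13 (-0.09, adjusted p = 0.335) or ULK2 (-0.18, adjusted p = 0.551).

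Where A375 was lower, OPTN (0.84 ± 0.145 SE, adjusted p = 4.69e-05), ATG12 (0.70 ± 0.0797, adjusted p = 5.09e-08) and SQSTM1 (0.51 ± 0.054, adjusted p = 1.38e-08) differed most. SQSTM1 fell in both lines, with log2 fold changes of -0.46 in clone 13, -0.22 in clone 3 and -0.84 in A375. ATG12 fell in A375 and was called in neither clone, at 60.5, 55.4 and 58.1 CPM in clone 13, 64.9, 60.3 and 61 CPM in clone 3, and 55, 58.6 and 56 CPM in MITFKO. GABARAP (-0.07) and GABARAPL2 (0.03), which rose in all 3 comparisons, showed no called difference between the lines. Apart from ATG5, whose call ended without MITFKO replicate 2 (adjusted p = 0.0533), A375 wild-type replicate 2 (0.0523) or A375 TFE3KO replicate 1 (0.085), these calls held in every alternative. The residual TFE3 transcript, the state of MITF and the medium all differ between the lines and cannot be told apart here.

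**Figure D3:**
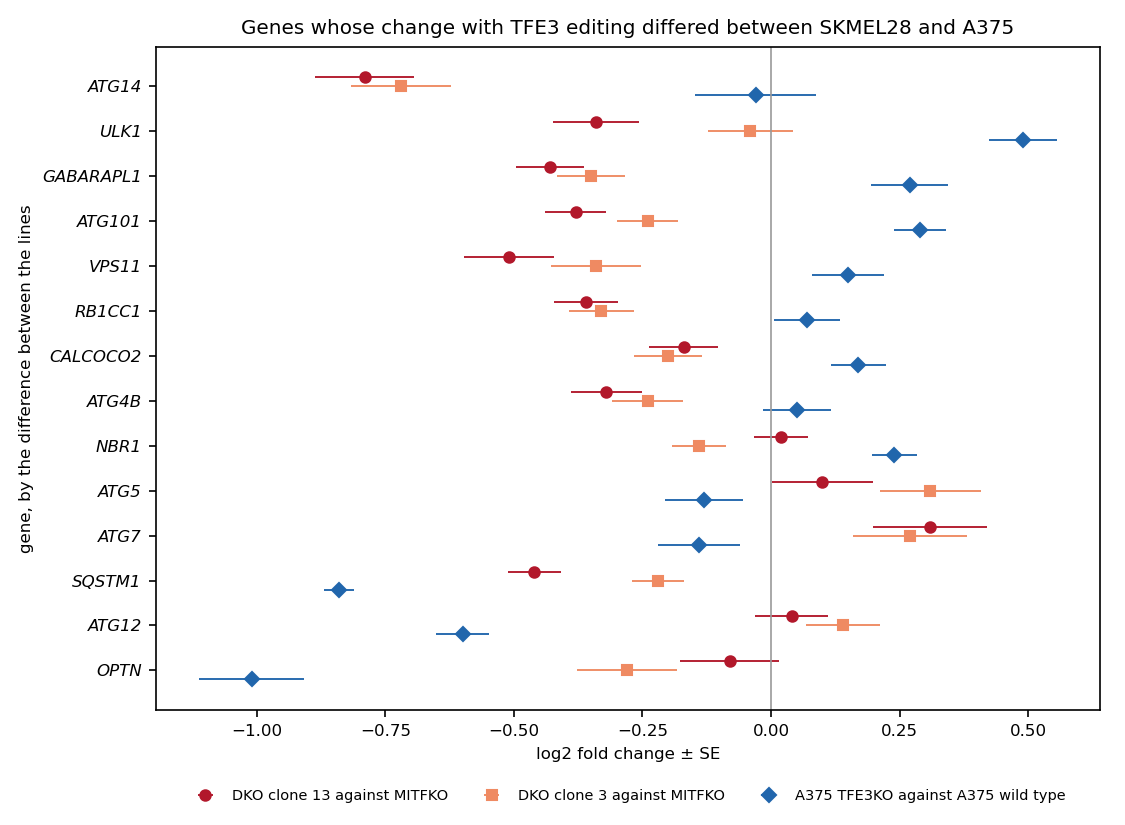
Log2 fold changes with standard errors for the 14 genes whose change with TFE3 editing differed between the lines, ordered by that difference. Circles and squares are the DKO clones against MITFKO, diamonds A375 TFE3KO against A375 wild type. At the top, ATG14 is lower in both clones and near 0 in A375, and at the bottom OPTN is at -1.01 in A375.

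The wild-type lines themselves differed in most of these genes. In A375 wild type against SKMEL28 wild type, 11 of 35 genes were higher and 18 lower (82.9% called), against 67.6% of 16248 genes tested. The fold changes rest on 1 SKMEL28 library, and line and medium cannot be told apart. WIPI1 had 5.26, 5.71 and 5.7 CPM in A375, against 79 CPM in SKMEL28, 14.2-fold lower (log2 -3.83 ± 0.116 SE, adjusted p = 5.27e-23). TAX1BP1 had 130, 120 and 116 CPM in A375, against 331 CPM in SKMEL28 (-1.44 ± 0.075, adjusted p = 5.64e-17), and SQSTM1 was 2.56-fold lower (-1.36 ± 0.0537, adjusted p = 5.43e-20). ATG10 had 6.08, 6.59 and 4.9 CPM in A375, against 18.4 CPM in SKMEL28 (-1.65 ± 0.193, adjusted p = 7.01e-09). In the other direction, MAP1LC3A had 138, 169 and 130 counts in A375, against 2 counts in SKMEL28, a ratio of 82.1 with a 95% counting interval of 22.6 to 680. ATG13 was 2.53-fold higher in A375 (1.34 ± 0.0881, adjusted p = 1.76e-14). The calls of PIK3C3 (log2 -0.25), GABARAPL1 (-0.24), ATG3 (0.28) and RB1CC1 (-0.41) did not hold in every alternative. That of PIK3C3 ended without A375 wild-type replicate 1, 2 or 3, that of GABARAPL1 without replicate 2 or 3, and that of ATG3 without replicate 2. Removing the GC trend ended the calls of PIK3C3, GABARAPL1 and RB1CC1. In DESeq2, and with RLE size factors, PIK3C3 and GABARAPL1 lost theirs, and with no filter on low counts ATG3 did. Over the alternatives the log2 value of PIK3C3 ran from -0.29 to -0.03.

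Because the ATG8 genes moved unequally, their makeup was computed as shares of the family's summed CPM per kb. GABARAP held the largest share in every group, 45.1% ± 1.4 in DKO clone 13, 44.6% ± 0.953 in clone 3 and 39.8% ± 0.251 in MITFKO (SD, n = 3 each), and 48.8% in wild-type SKMEL28. GABARAPL1 held 11.8% ± 0.577 in clone 13, 12.5% ± 0.466 in clone 3 and 16.5% ± 0.793 in MITFKO, and 9.1% in wild type. MAP1LC3B held 27.2% ± 2.43, 27.3% ± 0.672 and 30.2% ± 0.683 in the same edited groups, and 26.4% in wild type. The MITFKO line thus had the lowest GABARAP share and the highest GABARAPL1 share of the SKMEL28 groups. In A375 MAP1LC3B held 15% ± 1.47 in TFE3KO and 18.5% ± 0.94 in wild type, below every SKMEL28 group. GABARAPL2 held 23.1% ± 0.404 in A375 TFE3KO and 22.5% ± 1.26 in A375 wild type, against 12.8% to 15.6% in SKMEL28 groups, and MAP1LC3A 5.44% ± 0.162 and 5.04% ± 0.648, against 0.735% at most. Shares rest on the exon lengths used, and MAP1LC3B has a near-identical copy, MAP1LC3B2, whose reads may be shared with it.

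**Figure D4:**
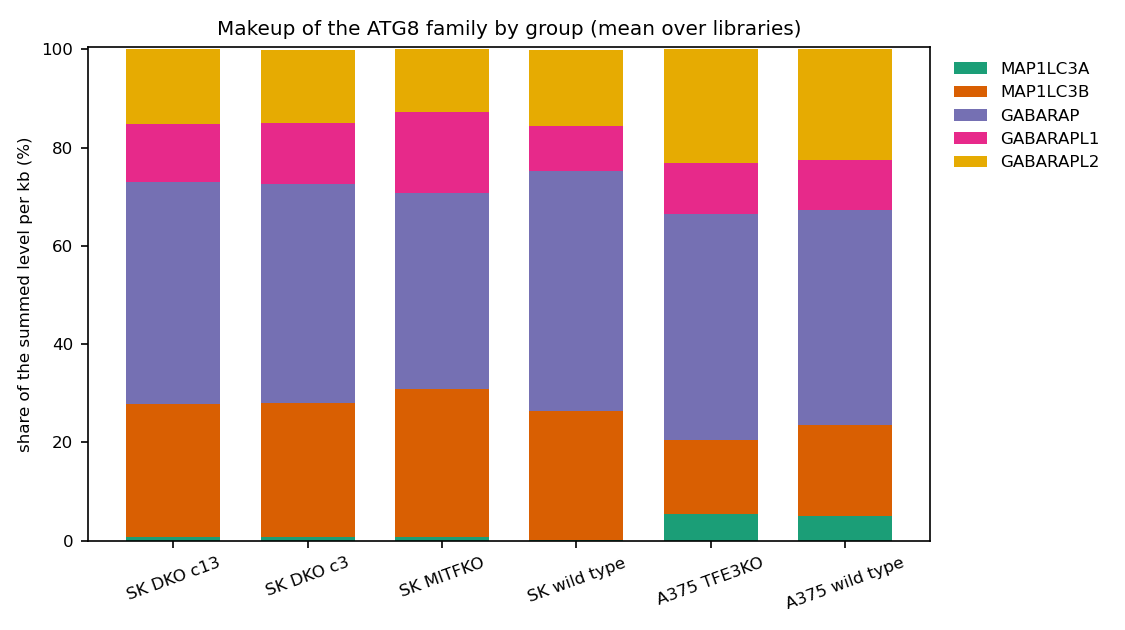
Share of each ATG8 gene in the family's summed level per kilobase of exon, as the mean over the libraries of each group (%, no error drawn). SK stands for SKMEL28, c13 and c3 for the DKO clones. GABARAP is the widest band everywhere, and the A375 bars show more GABARAPL2 and MAP1LC3A and less MAP1LC3B than the SKMEL28 bars.

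Another 37 autophagy genes outside the 36, listed by role, were counted for comparison. In MITFKO against wild type 10 rose and 5 fell of 35 tested (42.9% called, against 48.6% of all genes tested). Largest was RETREG1, a receptor for autophagy of the endoplasmic reticulum, at 44.3 ± 3.61 CPM in MITFKO and 10.3 CPM in wild type (log2 2.10 ± 0.155 SE, adjusted p = 1.96e-10), ahead of WDR45 (0.90), a relative of the WIPI proteins, and TMEM41B (0.77), a lipid scramblase. In clone 13 against MITFKO 9 rose and 14 fell of 35 tested (65.7% called, against 40.7% of all genes tested). In clone 3 against MITFKO 10 rose and 14 fell of 35 (68.6%, against 35.9%). BNIP3, a mitophagy receptor, averaged 314 ± 76.1 CPM in clone 13 and 195 ± 28.9 CPM in clone 3, against 77.2 ± 6.12 CPM in MITFKO (log2 2.02 and 1.33, adjusted p = 0.000159 and 0.00165). Its relative BNIP3L rose by 1.25 in clone 13 and by 0.77 in clone 3.

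VAMP8, a SNARE protein of autophagosome fusion, averaged 0.742 ± 0.265 CPM in clone 13 and 10.8 ± 1.64 CPM in clone 3, against 13.7 ± 0.813 CPM in MITFKO, and fell by 4.22 in clone 13 (adjusted p = 4.9e-12). CCPG1, another receptor for the endoplasmic reticulum, fell by 1.33 in clone 3, to 18.9 ± 2.77 CPM, against 47.6 ± 2.17 CPM in MITFKO. It also fell in clone 13 (log2 -1.15). RUBCN, an inhibitor of the PI3-kinase complex, fell by 0.90 in clone 3 and also in clone 13 (log2 -0.73). In A375 TFE3KO 7 of 34 rose and 5 fell (35.3% called, against 43.3% of all genes tested). RETREG1 changed most, at 9.02 ± 1.69 CPM in TFE3KO and 4.66 ± 0.856 CPM in wild type (log2 0.94 ± 0.172, adjusted p = 9.95e-06), followed by the fusion SNARE YKT6 (-0.36), WDR45 (0.34) and TECPR1 (0.34). Against MITFKO, RETREG1 was lower in clone 3 (log2 -0.83, adjusted p = 6.37e-07) and was not called in clone 13 (-0.02). Its change with TFE3 editing differed between the lines (log2 -1.35, adjusted p = 4.26e-07). None of the named calls of this paragraph and the preceding one ended in the alternatives run.

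The sources used here do not give whether counting used strand, and 15 of the 36 genes share exon bases with a counted gene on the opposite strand. The largest overlaps by share of exon length were WIPI1 with ARSG (24.3%), SQSTM1 with MGAT4B and MRNIP (22.0%), ATG7 with VGLL4 (18.1%) and BECN1 with CNTD1 and PSME3 (17.1%). These overlaps were taken from GENCODE exons on GRCh38, matched by symbol, while the counts were made on hg19. The concern is limited to reads over the shared bases, and how such reads were counted is not given. Their part in the changes of WIPI1 and SQSTM1 was not tested.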

How the data were processed

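The authors deposited raw read counts per gene, 1 file for each of 16 libraries, with 28278 gene symbols each. Per the submitters' processing notes, STAR, featureCounts, DESeq2 and the build hg19 were used, with no versions or order. The strand setting, the annotation release and how multi-mapped reads were treated were not given in the sources used here. Library totals were 17320855 to 31269126 counts, so scarce genes such as MAP1LC3A are limited by counting error.

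The tests used edgeR 4.0.16 (R 4.3.3) on these counts: filterByExpr by group, TMM scaling, the robust quasi-likelihood F-test, and Benjamini-Hochberg adjustment over all genes tested, with a threshold of 0.05. SKMEL28 comparisons came from a model of its 10 libraries, A375 from its 6, the difference between lines from 15 (without wild-type SKMEL28), and the wild-type lines from all 16. Levels are CPM with TMM factors over all 16 libraries, and per-kilobase values use GENCODE exon lengths on GRCh38, matched by symbol. Genes, lists, tests and alternatives were chosen with earlier results of these data known. The genes with values in every group are the ATG8 genes, the receptors, the 5 called genes with the largest absolute log2 fold change in each comparison, and those whose change differed between lines by at least 0.5. For the other autophagy genes the rule names the 3 largest called changes of a comparison. Alternatives were DESeq2 1.42.0, RLE size factors, no filter, each library left out, replicate 2 of both clones left out, the libraries of a contrast alone, GC trend removed, and the replicate number as a block. The reads carry no molecular identifiers and are not independent molecules, so intervals on counts cover counting error only.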

Additional observations from a re-analysis of the deposited data

Results flagged for a closer look

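For 14 of 35 genes (40%, against 37.7% of all genes tested) the change with TFE3 editing differed between SKMEL28 and A375 by a test of the difference itself, an interaction contrast in edgeR's quasi-likelihood model, with p-values adjusted over 15093 genes. The values are the mean log2 change of both DKO clones against MITFKO minus the log2 change of A375 TFE3KO against A375 wild type. The difference was negative for ATG14 (-0.72), ULK1 (-0.67), GABARAPL1 (-0.65), ATG101 (-0.58), VPS11 (-0.57), RB1CC1 (-0.40), CALCOCO2 (-0.35), ATG4B (-0.32) and NBR1 (-0.29). It was positive for OPTN (0.84), ATG12 (0.70), SQSTM1 (0.51), ATG7 (0.43) and ATG5 (0.35). For ATG101, GABARAPL1 and CALCOCO2 the change was called lower in each DKO clone, which share the MITFKO libraries, and higher in A375 TFE3KO. The CALCOCO2 calls were near the threshold: that in clone 13 (adjusted p = 0.0427) ended in 10 of 13 alternatives and that in clone 3 (0.0204) in 4 of 13. For SQSTM1 it was called lower in both lines and by more in A375. All groups had 3 libraries or fewer, so no library was tested for lying far from the rest of its group.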

How the results depend on the processing

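Over the 35 genes and 7 comparisons, 3010 values were recomputed under the alternatives: 2836 stayed on the same side of the threshold, 110 lost a call and 64 gained one, and 0 called values changed direction. Values that were not called could change sign. With each library left out in turn, the genes called higher in clone 13 against MITFKO numbered 3 to 6 (6 with all libraries), those higher in clone 3 numbered 2 to 5 (4), those lower in clone 3 numbered 8 to 12 (14), those higher in clone 13 against clone 3 numbered 0 to 4 (4), and those lower in A375 TFE3KO numbered 3 to 4 (5). Without replicate 2 of both clones, and with the libraries of the contrast alone, 7 genes were higher in clone 3. With the libraries of the contrast alone 1 gene was higher in clone 13 than in clone 3, and with the GC trend removed 6 were lower there (3 with it). In DESeq2, and with the replicate number as a block, 3 genes were lower in A375 TFE3KO. The cause of these shifts was not tested, beyond there being fewer libraries where some were left out. The replicate numbers were not treated as pairs in the main tests. Deviations of same-numbered libraries correlated at 0.11, 0.23 and 0.07 between the DKO clones, and at -0.07 to 0.03 between the other groups compared. Between the DKO clones 5 of 6 libraries correlated best with their own number, which is a hint from the data and not the design, against 2 of 6 or fewer between the other groups. With the block, clone 13 against clone 3 kept 4 higher and 3 lower genes, and the remaining counts stayed within 1 or 2 genes of the values above. For MITFKO against wild type and for the wild-type lines, no block could be fitted, because the lone SKMEL28 wild-type library shares no number with the groups it is set against. It could not be left out, so the MITFKO values depend on it throughout.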
